A study of Homo sapiens with 15 samples.

Results

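TXNIP, its arrestin-domain relatives and the transcription factor MondoA were followed in A2058, an established human malignant melanoma cell line, after 8 hours with a respiratory inhibitor or its solvent. The 8 genes were TXNIP, ARRDC1, ARRDC2, ARRDC3 and ARRDC4, the MondoA gene MLXIP, its partner MLX, and KLF10. They were chosen by name for their place in glucose sensing, with earlier results of these data known. The ranks and counts below therefore describe these genes and are no independent test of the choice. Each array probe with a RefSeq accession of one of these genes was taken. Of 22439 genes with a symbol and a probe on the array, these are 8, and of 58201 probes they hold 10. TXNIP, KLF10 and the 4 ARRDC genes had 1 probe each, and MLXIP and MLX had 2 each. All 10 probes were well above background on all 15 arrays, so none was gained or lost through a filter on dim probes.

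The study set up 3 arrays for each of 5 groups, all of A2058 cells in medium with serum. The design text of the series speaks of independent experiments, and the labels number the replicates without saying that a number marks the same experiment in every group. The DMSO group received that solvent and the NP group 3 µM of NP, a code that the series title spells out as neopetasin and for which the published methods give petasin at the same dose and time. The W group received water, the MET group 5 mM metformin and the PHEN group 50 µM phenformin, both biguanides dissolved in water. Each compound was compared with its own solvent, to see what 8 hours of the compound did to transcript levels. A2058 is 1 cell line, so differences between donors or tumours are not part of these values.

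TXNIP binds thioredoxin and also lowers glucose uptake by driving glucose transporters off the cell surface. It belongs to the alpha-arrestins, adaptor proteins that carry membrane cargo to ubiquitin ligases, and ARRDC4 is its closest relative in sequence. MondoA, encoded by MLXIP, senses glucose 6-phosphate, moves to the nucleus with its partner MLX and binds paired E-box-like elements called carbohydrate response elements. TXNIP and ARRDC4 are its best known targets, and inhibitors of respiration that draw down glucose 6-phosphate are known to lower TXNIP.

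Promoter windows are shown for these 2 genes because they were the members that differed most between treated and solvent arrays. Each is the stretch of 250 bases before the transcript start in RefSeq, build GRCh38.p14, read 5′ to 3′ on the gene's strand. For TXNIP the window shown, that of 1 of its starts, is chr1:145996580-145996829 on the minus strand, and for ARRDC4 it is chr15:97960453-97960702 on the plus strand. In TXNIP the capitals mark a pair of E-box-like elements, each spelled CACGNG, with the 5 bases between them. In ARRDC4 they mark 1 E box, CACGTG.
TXNIP: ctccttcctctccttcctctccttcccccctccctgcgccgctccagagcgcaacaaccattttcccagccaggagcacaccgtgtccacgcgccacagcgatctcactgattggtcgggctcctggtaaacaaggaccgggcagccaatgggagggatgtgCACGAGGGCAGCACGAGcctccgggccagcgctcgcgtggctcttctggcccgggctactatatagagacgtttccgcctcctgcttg
ARRDC4: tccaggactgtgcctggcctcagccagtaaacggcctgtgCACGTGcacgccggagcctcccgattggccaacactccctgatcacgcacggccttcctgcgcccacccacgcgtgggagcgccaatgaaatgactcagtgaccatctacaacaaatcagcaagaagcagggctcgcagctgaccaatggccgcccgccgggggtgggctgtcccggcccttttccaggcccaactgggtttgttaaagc

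Both strands of 35116 promoter windows were searched for these letters. The paired element, which in TXNIP reads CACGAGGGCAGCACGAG and starts 88 bases before the transcript start, was in 16 windows, or 0.0456% of all. The E box, which starts 210 bases before the start of ARRDC4, was in 6.34% of windows, and MLX held 1 too, 50 bases before its start. A looser pair with CANNNG in both places and the same spacing, of which the stricter pair is a special case, was in 11.4% of windows and among the members also in the window of a second ARRDC2 start. The letters CCAAT, searched after both windows had been read, occurred 2 times before TXNIP and 3 times before ARRDC4. At least 2 were in 9.53% and at least 3 in 2.93% of windows, and no CCAAT overlapped the capitals. The windows of ARRDC1, ARRDC3 and MLXIP held neither pair nor an E box. The window of a second TXNIP start, chr1:145995745-145995994, held neither pair, no E box and no CCAAT. Windows were found for 7 of the 8 members, KLF10 being the other. These matches are letters in a window and were not measured as binding sites.

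Values below are log2 probe intensities relative to the array's 75th percentile, so 0 is the 75th percentile of brightness on that array. They compare arrays for 1 probe and say nothing of the level of one gene against another. The DMSO and NP arrays lay on a different pair of slides from the W, MET and PHEN arrays, with replicate 3 of each pair on a slide apart from replicates 1 and 2. Solvent and slide therefore cannot be told apart. The slide of DMSO 3 and NP 3 was dimmer, with 75th percentiles of 7.75 and 7.76 on the log2 scale against 8.35 to 8.68 on the other 13 arrays. Of 7 melanocyte and melanoma markers, 6 were above background on all 15 arrays and TYR on 13. Among markers of other cell types, EPCAM and KRT5 were above background on no array, ALB on 1, CD3E on 11, and PTPRC, PECAM1 and KRT14 on all 15. No marker on either list passed the test in any comparison of a compound with its solvent.

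TXNIP was lower with every compound in every replicate pair. On the DMSO arrays its values were 0.81, 0.92 and -0.26, and on the NP arrays they were 0.10, 0.13 and -2.05. The pair differences, NP minus DMSO, were -0.72, -0.79 and -1.79, yet the groups overlapped because replicate 3 was low in both. On the water arrays TXNIP stood at 1.33, 1.58 and 1.52. The MET arrays gave -0.23, -0.11 and -0.08, and the PHEN arrays gave 0.01, 0.08 and -0.02. All 3 arrays of each biguanide lay below all 3 water arrays, with more than a log2 unit between them. Whole cultures were lysed, so less TXNIP RNA in every cell cannot be told from fewer cells that carry it.

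ARRDC4, an adaptor that like TXNIP restrains glucose uptake, was also lower with every compound in every pair. Its values were -1.27, -1.37 and -2.52 with DMSO and -1.89, -2.03 and -3.32 with NP. The 3 pair differences were -0.61, -0.66 and -0.80, again with overlapping groups. On water the values were -1.42, -1.36 and -1.12. They were -2.39, -2.73 and -2.25 with MET and -2.38, -2.51 and -2.41 with PHEN. Neither biguanide group overlapped with water.

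**Figure D1:**
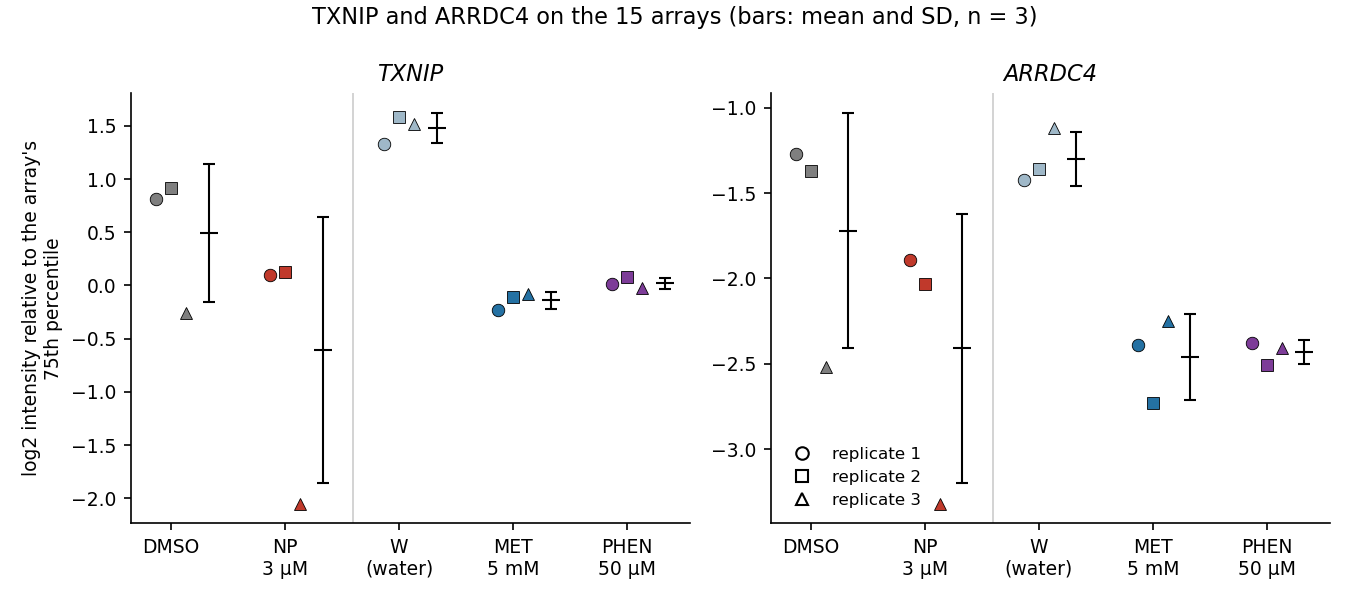
Log2 intensity of the TXNIP probe (left) and the ARRDC4 probe (right), minus each array's 75th percentile, on the vertical axis, with the 5 groups along the horizontal axis. Symbols are single arrays, shaped by replicate number, and the bars beside them are the mean and SD of 3 arrays. The MET and PHEN arrays lie below all W arrays for both genes, and DMSO 3 and NP 3 lie below the other arrays of their group.

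In a limma fit of all 15 arrays, blocked on the replicate number, a probe was called at a Benjamini-Hochberg adjusted p of at most 0.05 and a change of at least 1.5-fold, over 32912 probes tested. By this test 0 of the 8 members was called with NP, where 0.0304% of probes were called, 0 with MET, where 0% were, and 0 with PHEN, where 0.0243% were. At an unadjusted p of at most 0.05 in the same limma fit the members numbered 1 with NP (TXNIP), 2 with MET and 2 with PHEN (TXNIP and ARRDC4 in both), beside 4.91%, 2.53% and 2.3% of probes. The median log2 fold change of the members was -0.06 with NP, -0.02 with MET and 0.00 with PHEN, beside medians over all probes tested of -0.02, 0.00 and -0.04.

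The fitted log2 fold change of TXNIP was -1.10 with NP (SE 0.42, limma adjusted p = 0.948), a level 2.14-fold lower. With MET it was -1.61 (SE 0.42, limma adjusted p = 1), or 3.06-fold lower, and with PHEN -1.45 (SE 0.42, limma adjusted p = 1), or 2.74-fold lower. Among the 23917 probes above background on all 15 arrays, 0 had a more negative fold change than TXNIP with MET, 0 with PHEN and 6 with NP. TXNIP thus headed that list with each biguanide at an adjusted p far from the threshold. Without replicate 3 the NP value was -0.75. The ARRDC4 fold changes were -0.69 with NP (SE 0.36), -1.15 with MET (SE 0.36) and -1.13 with PHEN (SE 0.36), each with a limma adjusted p of 1. More negative values than these were found for 42, 2 and 3 of the 23917 probes. With normexp background correction, which adds an offset of 50 and so shrinks changes of dim probes, the ARRDC4 values were -0.44, -0.72 and -0.69.

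Same-numbered arrays deviated together within each pair of slides but not across them, as measured by correlations that are given with the processing. These did not tell pairing by number from a shift by slide, as replicate 3 lay on a slide apart. With the replicate block nested in each pair of slides, the fold changes were the same and the standard errors smaller, 0.19 for TXNIP and 0.09 for ARRDC4. ARRDC4 then passed, having fallen with NP (limma adjusted p = 0.0478), with MET (limma adjusted p = 0.0456) and with PHEN (limma adjusted p = 0.0253). It was the 1 member called in each comparison, where 0.0122%, 0.00304% and 0.00304% of probes were called lower. So with MET and with PHEN it was the 1 probe of 32912 called lower in that fit. In a fit of only the groups compared, with the replicate block, ARRDC4 had limma adjusted p = 0.64 with NP, 0.291 with MET and 0.836 with PHEN, and 0 probes were called in each. TXNIP did not pass in the nested fit, at limma adjusted p = 0.0922 with NP, 0.125 with MET and 0.104 with PHEN. At an unadjusted p of at most 0.05 the nested fit held 2 members with NP (TXNIP and ARRDC4), 4 with MET (these, ARRDC1 and KLF10) and 3 with PHEN (the same without KLF10), beside 12.2%, 9.94% and 7.03% of probes. A slide term beside the block brought TXNIP to 0.0659, 0.0585 and 0.0419, so that it too passed with PHEN. In the fit with the slide term 1, 1 and 2 members were called, all lower, beside 0.0182%, 0.00304% and 0.00912% of probes. By the methods' t-test, paired, unadjusted and with the same 1.5-fold threshold, but here set against each compound's own solvent where the methods give DMSO for all, the members called were 1, 2 and 2, beside 0.775%, 0.426% and 0.532% of probes in either direction, and after adjustment 0 were called. The 95% intervals of the TXNIP change in the nested fit were -1.53 to -0.66 with NP, -2.05 to -1.18 with MET and -1.89 to -1.02 with PHEN.

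**Figure D2:**
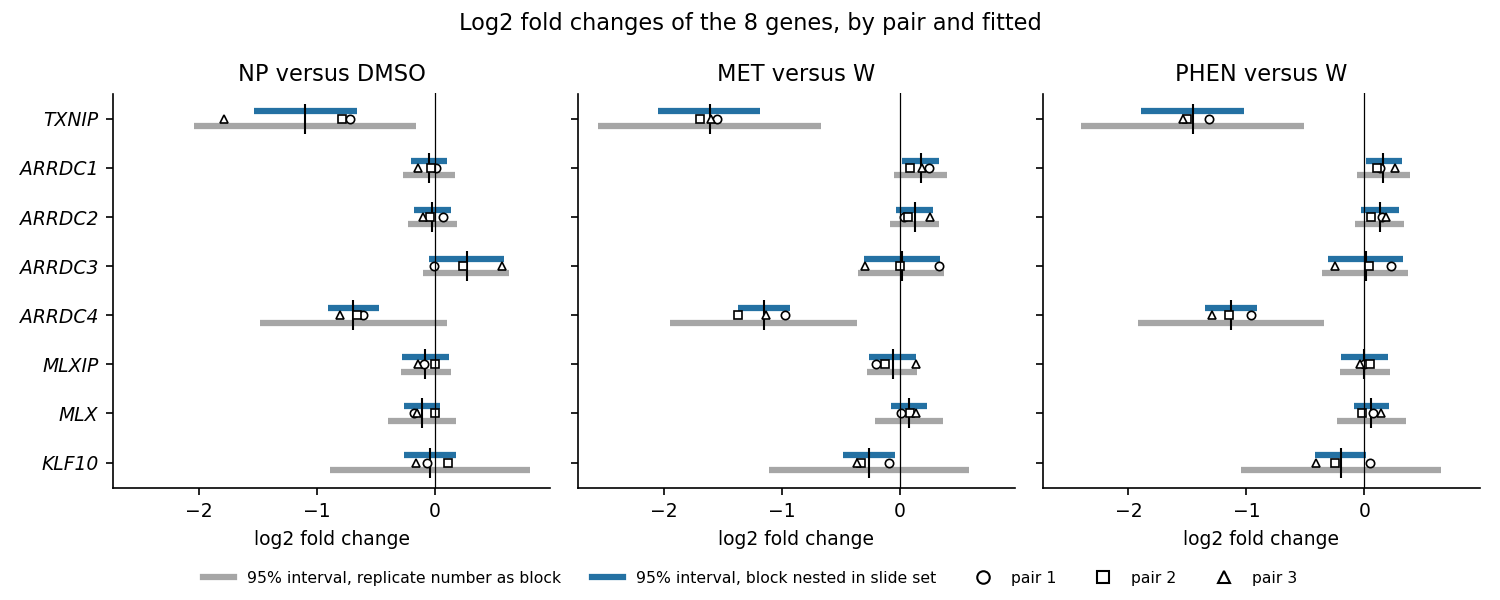
Log2 fold change (horizontal axis) of the 8 genes, brightest probe, for each compound against its own solvent. Open symbols are the 3 replicate pairs, vertical ticks the fitted change, grey bars the 95% interval of the fit blocked on replicate number and blue bars the 95% interval with the block nested in each pair of slides. TXNIP and ARRDC4 lie left of 0 in all pairs, and the blue bars of both are the narrower ones.

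A change of more than 1.5-fold downward in all 3 replicate pairs was seen for 45 of 32755 probes with NP (0.137%), 18 of 32834 with MET (0.0548%) and 95 of 32877 with PHEN (0.289%), and TXNIP and ARRDC4 were among them each time. The NP and MET comparisons share no array, and neither do NP and PHEN. In all 3 pairs of NP and all 3 of MET, 2 of 32686 probes (0.00612%) met this mark, and they were TXNIP and ARRDC4. In all 3 pairs of NP and all 3 of PHEN, 3 of 32726 probes (0.00917%) met it, namely TXNIP, ARRDC4 and 1 probe with no symbol. MET and PHEN share the water arrays and were not counted together. ARRDC4 met the mark with NP by little, with a pair difference of -0.61 where 1.5-fold is 0.585 in log2. With normexp its fitted NP change was -0.44, short of 1.5-fold. These counts were not repeated with other settings.

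**Figure D3:**
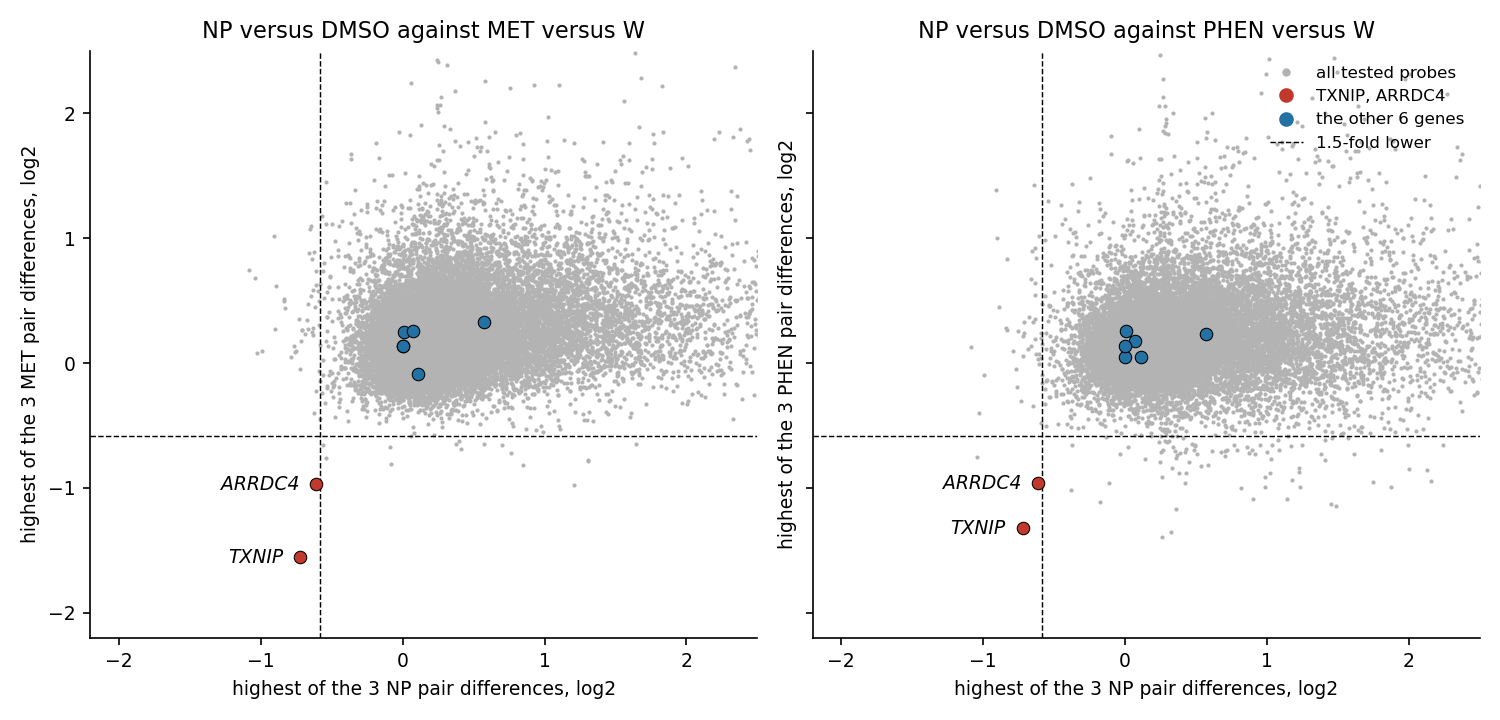
For each tested probe, the highest (least negative) of the 3 NP minus DMSO pair differences on the horizontal axis and of the 3 MET minus W (left) or PHEN minus W (right) pair differences on the vertical axis, both in log2 units. Dashed lines mark 1.5-fold lower, so probes in the lower left corner were lower by more than that in all 6 pairs. TXNIP and ARRDC4 (red) lie in that corner in both panels and the other 6 genes (blue) do not. The axes leave out some probes, among them 290 on the left and 293 on the right with an absolute value beyond the upper end of an axis.

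Of the other 3 alpha-arrestins, none was called and none was lower in all 3 pairs of any compound. ARRDC1, an adaptor linked to the budding of vesicles from the plasma membrane, read 0.46, 0.49 and 0.77 with DMSO and 0.47, 0.46 and 0.63 with NP. It read 0.82, 0.90 and 0.79 with water, 1.07, 0.99 and 0.98 with MET, and 0.94, 1.00 and 1.05 with PHEN. Both biguanide groups lay above water without overlap, with fold changes of 0.18 (95% interval -0.05 to 0.40) and 0.16 (95% interval -0.06 to 0.39). With the nested block these intervals were 0.02 to 0.33 with MET and 0.01 to 0.32 with PHEN, and ARRDC1 was not called (limma adjusted p = 0.462 and 0.69). The pair differences were above 0 with MET and with PHEN, but both sets were taken from the same 3 water arrays. Groups without overlap, in either direction, made up 6.23% of probes with MET and 8.07% with PHEN, and among the members they numbered 3 in each, TXNIP and ARRDC4 lower and ARRDC1 higher. With NP no member was without overlap, beside 6.54% of probes.

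ARRDC2, a less studied adaptor of the family, read -0.04, 0.08 and 0.23 with DMSO and 0.03, 0.05 and 0.13 with NP. It read 0.36, 0.51 and 0.31 with water, 0.40, 0.58 and 0.58 with MET, and 0.52, 0.57 and 0.49 with PHEN. Its fold changes were -0.02, 0.13 and 0.13, and all 3 comparisons overlapped. ARRDC3, an adaptor for the beta-2 adrenergic receptor and other cargo, read -1.14, -1.07 and -1.62 with DMSO and -1.15, -0.83 and -1.05 with NP. The change of 0.27 (95% interval -0.10 to 0.63) was made of pair differences of -0.01, 0.24 and 0.57. ARRDC3 lay between -1.59 and -1.37 with water, -1.65 and -1.24 with MET and -1.61 and -1.35 with PHEN, with changes of 0.02 and 0.01. A loss of up to 0.35 for ARRDC3 with MET lies within the 95% interval of that change.

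MLXIP, which encodes MondoA itself, was moved past the test by no compound. Its brighter probe read 3.62, 3.62 and 3.89 with DMSO and 3.53, 3.61 and 3.76 with NP. It read 3.12, 3.12 and 3.33 with water, 2.91, 3.00 and 3.48 with MET, and 3.12, 3.17 and 3.29 with PHEN. The fold changes were -0.08 with NP (95% interval -0.29 to 0.14), -0.06 with MET (95% interval -0.28 to 0.15) and 0.00 with PHEN (95% interval -0.21 to 0.22). The dimmer probe ran between -1.49 and -0.91 over the 15 arrays, with changes of 0.05, 0.13 and 0.16. The 2 probes thus differed in sign with NP and MET, and neither was called.

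MLX, the partner through which MondoA binds DNA, ran between 3.01 and 3.66 on its brighter probe over the 15 arrays, with changes of -0.11, 0.08 and 0.06. Its dimmer probe read 1.71, 1.72 and 0.84 with DMSO and 1.64, 1.64 and 0.63 with NP, and between 1.61 and 1.80 on the other 9 arrays. DMSO 3 and NP 3 were the low arrays on that probe, and the pair differences of -0.06, -0.08 and -0.21 did not carry that drop. KLF10, a zinc finger repressor induced by TGF-beta and reported as a target of the glucose-sensing factors, also read low there. It read 1.25, 1.66 and 0.27 with DMSO and 1.18, 1.77 and 0.11 with NP. With water KLF10 read 0.50, 0.96 and 1.20, with MET 0.41, 0.63 and 0.84, and with PHEN 0.55, 0.71 and 0.80. Its changes were -0.04, -0.26 and -0.20, lower in 3 of 3 pairs with MET and in 2 of 3 with PHEN and NP, and none was called.

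**Figure D4:**
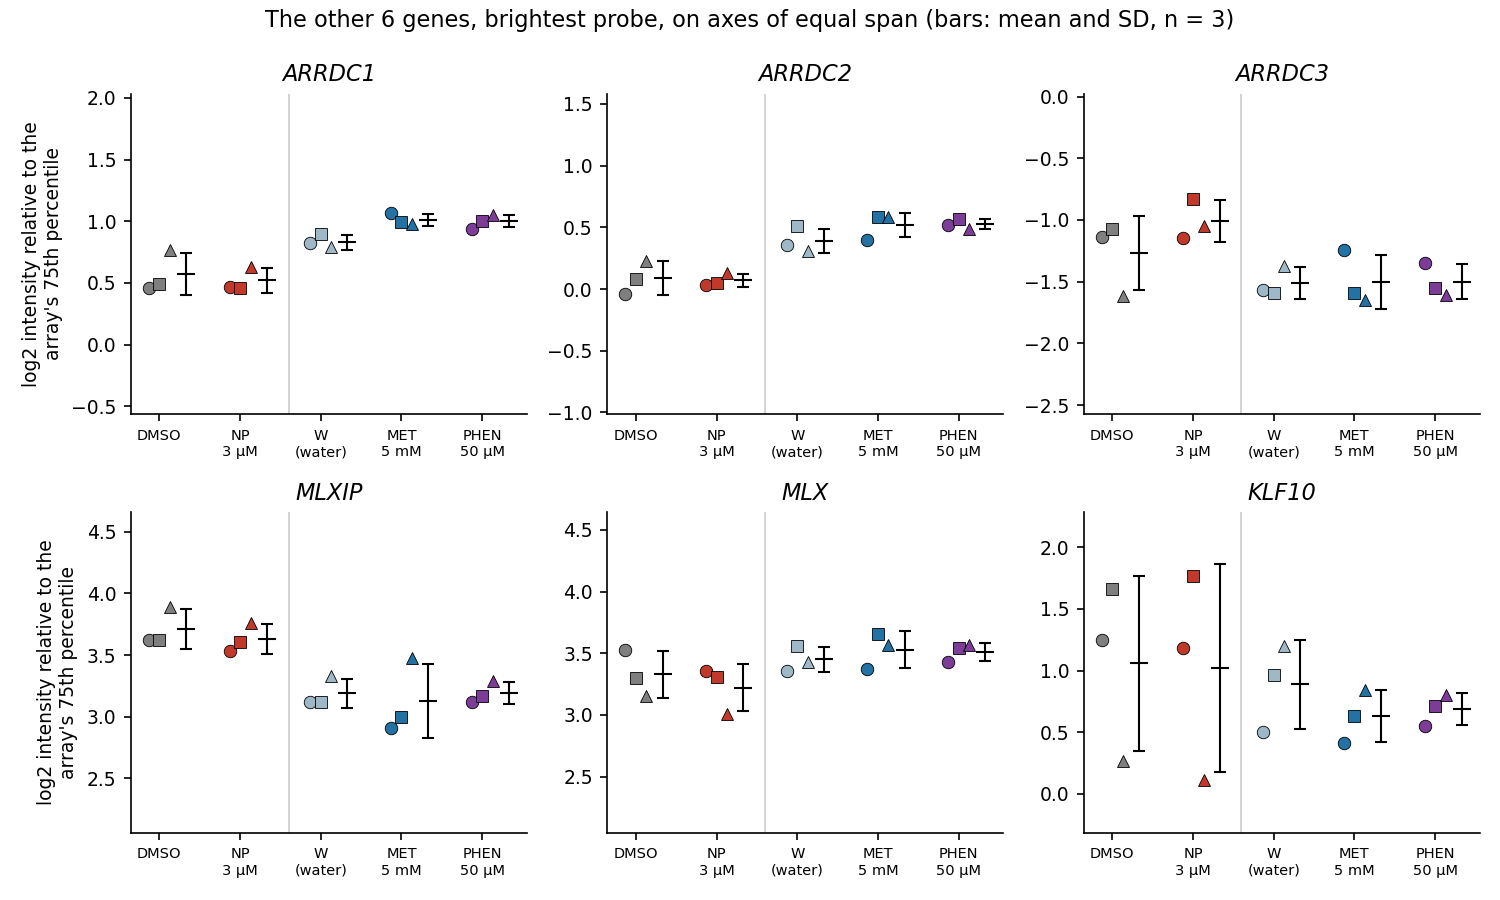
Log2 intensity of the brightest probe of ARRDC1, ARRDC2, ARRDC3, MLXIP, MLX and KLF10, minus each array's 75th percentile, by group, on vertical axes of equal span. Symbols are single arrays, shaped by replicate number, and the bars are the mean and SD of 3 arrays. Treated arrays lie among or close to the arrays of their own solvent, and DMSO 3 and NP 3 are low for KLF10.

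Between NP and the biguanides the doses differed, so the contrast is of the treatments as given. The TXNIP change with NP minus that with MET was 0.52 (95% interval -0.82 to 1.85, limma adjusted p = 1), and minus that with PHEN it was 0.36 (95% interval -0.97 to 1.69, limma adjusted p = 1). For ARRDC4 these differences were 0.46 (95% interval -0.66 to 1.59) and 0.44 (95% interval -0.68 to 1.56). With the nested block the ARRDC4 intervals were 0.15 to 0.78 and 0.13 to 0.75, with limma adjusted p of 0.45 and 0.64. No member was called in either difference, in which 0% of probes were called, and in the limma fit without nesting none had an unadjusted p of at most 0.05. Metformin and phenformin differ in that phenformin carries a phenylethyl group where metformin carries methyl groups. At 5 mM metformin TXNIP averaged -0.14 ± 0.08 (SD, n = 3) and ARRDC4 -2.46 ± 0.25 (SD, n = 3). At 50 µM phenformin they averaged 0.02 ± 0.05 (SD, n = 3) and -2.43 ± 0.07 (SD, n = 3), and as the doses differ no comparison was made.

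Several members stood at different levels on the arrays of the 2 solvents. TXNIP averaged 0.49 ± 0.65 (SD, n = 3) with DMSO and 1.48 ± 0.14 (SD, n = 3) with water, a difference of -0.99 (SE 0.42, limma adjusted p = 0.124). ARRDC4 averaged -1.72 ± 0.69 (SD, n = 3) and -1.30 ± 0.16 (SD, n = 3), with DMSO 3 again the low array. MLXIP was higher with DMSO by 0.52 on its brighter probe (limma adjusted p = 0.00773) and differed by -0.18 on its dimmer one (limma adjusted p = 0.245). ARRDC2 was lower by 0.30 (limma adjusted p = 0.0467). Neither reached 1.5-fold, and 0 of 8 members was called beside 12.3% of probes. Values of 4 members did not overlap between the solvents, TXNIP, ARRDC1 and ARRDC2 lower and MLXIP higher with DMSO, beside 32% of probes in either direction. The median over all probes tested was -0.15 in this contrast, and solvent and slides cannot be told apart in it. Set against DMSO in place of water, as the published methods did, the fold change of TXNIP was -0.63 with MET and -0.47 with PHEN, and that of ARRDC4 was -0.73 and -0.71. In that contrast, which also crosses the slides, MLXIP stood at -0.58 with MET (limma adjusted p = 0.0031) and -0.52 with PHEN (limma adjusted p = 0.00659), ARRDC1 at 0.44 and 0.43 (limma adjusted p = 0.011 and 0.016) and ARRDC2 at 0.43 and 0.43 (limma adjusted p = 0.00944 and 0.0117). None reached 1.5-fold, and 0 members were called.

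TXNIP and ARRDC4 followed each other array by array. Each probe was centred on its mean within the DMSO and NP arrays and within the W, MET and PHEN arrays, and the brightest probe of 13868 genes was set against TXNIP over the 15 arrays. ARRDC4 had the highest Pearson r of them over all 15 arrays, 0.966. Its r was 0.971 over the 6 DMSO and NP arrays and 0.962 over the 9 others. Over the 6 DMSO and NP arrays HSPA1A (0.986) and EIF5A2 (0.977) stood above it. The arrays share their slides and treatments, so these values describe likeness and carry no test. After ARRDC4 came EIF5A2 (r = 0.960), a translation factor isoform, and further down JUN (r = 0.899), a subunit of AP-1, and HSPA1A (r = 0.891), an inducible HSP70 chaperone. The EIF5A2 changes were far smaller than those of TXNIP, at -0.28, -0.32 and -0.32. The most opposed were EZH1 (r = -0.960), a histone methyltransferase, BBC3 (r = -0.946), the BH3-only protein PUMA, PHYKPL (r = -0.912), PAPLN (r = -0.909) and WARS1 (r = -0.908), the cytosolic tryptophanyl-tRNA synthetase. Of the other members KLF10 stood at 0.681, MLX at 0.402, ARRDC3 at -0.007, MLXIP at -0.111, ARRDC2 at -0.541 and ARRDC1 at -0.700.

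**Figure D5:**
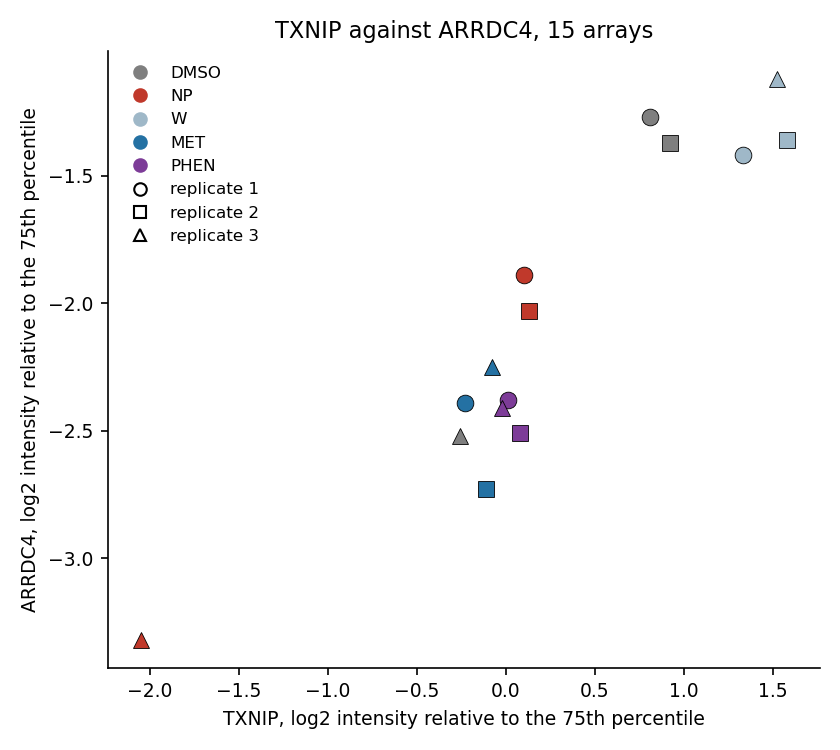
TXNIP (horizontal axis) against ARRDC4 (vertical axis), both as log2 intensity minus the array's 75th percentile, on the 15 arrays, coloured by group and shaped by replicate number. The 3 W arrays and DMSO 1 and 2 lie at the upper right, the MET and PHEN arrays lie together below them with DMSO 3, and NP 3 lies alone at the lower left.

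Genes around the members were counted from lists. Of the 68 listed genes tested, beside the markers, limma called 0 in each comparison of a compound with its solvent, with the replicate block as with the block nested. At an unadjusted p of at most 0.05, with the replicate block, they numbered 3 of 68 with NP, 2 with MET and 2 with PHEN. Over all probes tested the shares were 4.91%, 2.53% and 2.3%, so in that fit the lists did not stand out. At the same unadjusted p the nested fit held the counts below, beside 12.2%, 9.94% and 7.03% of probes. Targets of MondoA or its relative ChREBP numbered 3, 2 and 2 of 8, and bHLHZip relatives 1, 2 and 0 of 10. KLF relatives numbered 3, 2 and 1 of 10, and glucose genes 0, 1 and 1 of 11. Thioredoxin genes numbered 2, 4 and 2 of 16 and ubiquitin ligases 1, 1 and 2 of 8. For the arrestin-fold genes they were 0, 0 and 1 of 5. The values named are the largest in size among probes above background on all arrays of both groups compared. Of the 10 known targets of MondoA or of its relative ChREBP outside the members, 8 were tested, with a median log2 fold change of 0.10 with NP, -0.07 with MET and -0.01 with PHEN. KLF11, a zinc finger repressor close to KLF10, had the largest values among them with NP and MET, -0.23 and -0.30, with pair differences of -0.34, -0.28 and -0.28 for MET. Its pair differences were -0.29, -0.10 and -0.29 with NP and -0.08, -0.25 and -0.34 with PHEN. Its PHEN change was -0.22, smaller in size than those of other targets. Next in size were PFKFB3, a glycolytic regulator, at -0.17 with NP and RGS16, a regulator of G protein signalling, at 0.17 with MET. With PHEN the largest were GPD1 (-0.57), glycerol 3-phosphate dehydrogenase, whose pairs ran from -1.47 to 0.06, and PKLR (-0.52), the liver pyruvate kinase. The PKLR probe was dim, at a mean of -4.54 with water and -5.05 with PHEN, and its change had an SE of 0.44 (limma unadjusted p = 0.267). Of 11 bHLHZip relatives of MLXIP and MLX, 10 were tested, with medians of 0.00, -0.06 and 0.04. MXD4, a MAX-binding repressor, differed by -0.53 with NP and -0.20 with PHEN, MYC by 0.20 with NP and -0.25 with MET, and MLXIPL, which encodes ChREBP, by 0.32 with MET and -0.15 with PHEN.

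Of 13 genes for the entry of glucose, which TXNIP and ARRDC4 restrain, and for its phosphorylation, 11 were tested, with medians of -0.01, -0.02 and 0.01. Large values among them were -0.24 for HKDC1 and -0.17 for SLC2A10 with NP, 0.26 for G6PC3 with MET, and 0.32 for SLC2A3, the neuronal-type glucose transporter GLUT3, with PHEN. All 16 genes of the thioredoxin system were tested, with medians of -0.02, -0.01 and 0.02. RRM2, the small subunit of ribonucleotide reductase, stood at -0.20, -0.39 and -0.22, TXNRD2 at 0.30 with MET, GLRX2 at 0.20 with NP and TXNRD3 at -0.21 with PHEN. Of the 9 NEDD4-family ubiquitin ligases, which alpha-arrestins recruit, 8 were tested, with medians of 0.18, -0.03 and 0.00. NEDD4 stood at 0.36 and SMURF1 at 0.33 with NP, WWP2 at 0.25 with MET and 0.19 with PHEN, ITCH at -0.17 with MET and HECW2 at -0.22 with PHEN.

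Of 12 KLF relatives of KLF10, 10 were tested, with medians of 0.11, 0.06 and 0.06. KLF4, a stress-responsive factor, had the largest values, at 0.91 with NP (SE 0.16, limma adjusted p = 0.143, and 0.0842 with the nested block), 0.39 with MET and 0.51 with PHEN. Its pair differences were 0.80, 0.76 and 1.18 with NP, 0.31, 0.38 and 0.46 with MET and 0.43, 0.18 and 0.93 with PHEN. KLF2 stood at 0.38 with NP, and KLF7 at 0.27 with MET and 0.22 with PHEN. The 5 beta-arrestin and VPS26 genes, which share the arrestin fold, had medians of -0.04, 0.05 and 0.03, and the largest values were -0.07 for ARRB2 and 0.05 for VPS26C with NP, -0.19 for VPS26A and 0.18 for VPS26B with MET, and 0.23 for VPS26B and -0.07 for VPS26A with PHEN. ARRDC5, the remaining alpha-arrestin, was not well above background in any group and was not tested.

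The stricter paired element was in the promoter windows of 16 genes, of which 15 were tested. TXNIP was one of these, and the other 14 had log2 fold changes between -0.31 and 0.21 over the 3 comparisons. Among them, and named for their roles after the values were seen, GFPT1, which makes hexosamines, stood at 0.00, -0.15 and 0.03, and P4HA1, a prolyl hydroxylase of collagen, at -0.01, -0.13 and 0.04.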

How the data were processed

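RNA of A2058 cells was labelled with Cy3 and hybridized to SurePrint G3 Human GE 8x60K arrays, 15 in all, 3 for each of 5 groups. The deposited scanner intensity values come from Agilent Feature Extraction, version 10.7.3.1 per the file headers and 9.1 per the submitters' processing notes, and are background subtracted and detrended within the array. The array design was annotated on hg19. The authors' deposited value table holds log2 values of the same arrays, scaled to a common 75th percentile and floored at 4, with column medians of 4.00 to 5.16, and its centring beyond that is not given in the sources used here. It was used as an alternative. Deposited flags of 0 or 1 marked outlier and dim spots and gave no score.

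Log2 of the processed intensity minus the array's 75th percentile was used, spots of a probe were averaged, and outlier spots were set to missing (258 of 493680 values). There were 0 saturated spots, and 25799 to 45007 probes per array were well above background. A probe entered the tests if some group had it well above background on each of its 3 arrays, which held for 32912. These were tested with limma 3.58.1 in R 4.3.3, two-sided, in 1 fit of all 15 arrays with group and replicate number, Benjamini-Hochberg adjusted. The number of arrays limits the precision. Accessions were matched to RefSeq symbols for 31104 of 33080 probes with a RefSeq accession. Of several probes of a gene the one with the highest mean over the arrays was used, and both are given for the members.

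The labels number the replicates 1 to 3, and the design text gives 3 independent experiments, with nothing that ties a number to the same experiment across groups. Deviations of same-numbered arrays from their group means correlated at 0.305, 0.328 and 0.638 between DMSO and NP, at 0.849, 0.443 and 0.790 between W and MET, at 0.298, 0.251 and 0.391 between W and PHEN, and at -0.107, -0.182 and -0.027 between DMSO and W. Same-numbered arrays thus deviated together within each pair of slides. Correlations between unlike-numbered arrays of the same slide were not computed, and replicate 3 lay on a slide apart. Pairing by number and a shift by slide were therefore not told apart. Values with the replicate block nested in each pair of slides are given beside the results they change. Members and gene lists were chosen with earlier results of these data known. From the lists other than the markers, the 2 genes per list and comparison with the largest absolute log2 fold change were named, and of the likeness to TXNIP the 5 highest and 5 lowest genes. Some genes that these rules would name are not reported here. Scripts were tested on simulated data. Background correction, scaling, filters, probe rule, block, slides, solvent and left-out replicates were varied.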

Additional observations from a re-analysis of the deposited data

How the results depend on the processing

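The TXNIP and ARRDC4 changes against their own solvent kept their sign under all 17 settings run, with ranges of -1.29 to -0.75 (NP), -1.65 to -1.51 (MET) and -1.52 to -1.36 (PHEN) for TXNIP, and -0.73 to -0.44, -1.25 to -0.72 and -1.22 to -0.69 for ARRDC4, whose values nearest 0 came with normexp. Only background correction, scaling, the authors' table and left-out replicates could move these fold changes. The settings of block, slides, filter, probe rule and t-test could not, as both genes have 1 probe and every group holds each replicate number. With no replicate block the TXNIP and ARRDC4 fold changes were thus the same, and 0 members were called. With the replicate block nested in each pair of slides, 1 member was called with NP, 1 with MET and 1 with PHEN, ARRDC4 each time (-0.69, -1.15 and -1.13). With a slide term the counts were 1, 1 and 2, with ARRDC4 at the same values and TXNIP with PHEN at -1.45. By the methods' t-test, unadjusted, they were 1, 2 and 2, with ARRDC4 in all 3 comparisons and TXNIP with MET (-1.61) and PHEN (-1.45), and after Benjamini-Hochberg they were 0. With only the groups compared and the replicate block 0 members and 0 probes were called. In DMSO against W the members called were 1 with normexp (TXNIP, -1.0, beside 4.64% of probes), 1 with quantile normalization (MLXIP, 0.59, beside 9.89%) and 2 without replicate 3 (TXNIP, -0.59, and KLF10, 0.73, beside 19.6%), against 0, and leaving out single replicates gave 0 to 2. The cause of these shifts was not tested.

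Leaving out single replicates gave -1.29 to -0.75, -1.65 to -1.58 and -1.52 to -1.41 for TXNIP, the value nearest 0 with NP being that without replicate 3. Signs turned only for small changes. ARRDC2 with NP became 0.01 with the percentile over common probes. Leaving out single replicates gave -0.07 to 0.02 for ARRDC2 with NP, -0.12 to 0.02 for KLF10 with NP, -0.14 to 0.17 for ARRDC3 with MET, -0.10 to 0.13 for ARRDC3 with PHEN, -0.16 to 0.01 for MLXIP with MET and -0.02 to 0.02 for MLXIP with PHEN. Against DMSO in place of W, ARRDC3 stood at -0.22 and -0.23 with MET and PHEN and MLXIP at -0.52 with PHEN. MLXIP was at 0.04 with MET as the mean of its probes, and with PHEN at -0.02 with normexp and 0.00 with the common-probe percentile. All probes called numbered 10, 0 and 8 with NP, MET and PHEN, 65, 2 and 10 with the nested replicate block, 72, 1 and 16 with the slide term, and 0, 1 and 1 with no replicate block.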
